A study of Mus musculus with 4 samples.

Results

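The regions described here are the stretches of the genome that stood at the top of every liver peak list of the series. They were chosen by their place in those lists, and a peak in a list is not by itself proof of open chromatin. Each of 4 libraries came with a list of peak positions that is not in genome order, and lines 1 to 1000 of each list were taken in file order. Overlapping or touching peaks of the full lists were joined into merged regions, and a merged region was kept when it held a peak from those top lines of all 4 lists. This gave 676 regions of 38853 merged regions (1.74%), or 3.85% of the 17581 regions called in all 4 libraries. A region's place is its line number in a list, with line 1 at the top, and its worst line is the largest of its 4 line numbers. The quantity behind the order of the lines is not stated in any source used here, so a place is read as a position in a list and not as an amount of accessibility.

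The assay was ATAC-seq, whose enzyme, the transposase Tn5, inserts adaptors into DNA that is not wrapped up. The material was frozen liver of female FVB mice aged 11 weeks on standard chow, taken through the Omni-ATAC procedure. Wild-type mice gave 2 libraries (WT 1 and WT 2) and mice labelled PA gave another 2 (PA 1 and PA 2); the PA mice are Pcca-/- with a hypomorphic A138T form of Pcca, the gene of a subunit of propionyl-CoA carboxylase. The series calls the replicates biological, and no other allele or agent is named for any group. Liver is a mixture of cells, and in bulk tissue more open chromatin per cell and more cells of a type cannot be told apart.

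Active promoters are kept free of nucleosomes just before the transcription start, and this gap is where the transposase inserts most readily. Many such promoters lie in CpG islands and hold GC boxes, bound by factors of the SP and KLF families, CCAAT boxes, bound by the trimeric factor NF-Y, or ETS sites. NF-Y has a histone-like fold and is known to keep nucleosomes away from the promoters that it binds. Promoters of genes that hepatocytes use to make plasma proteins, such as Alb for albumin, are typically poor in CpG and are bound by liver factors such as HNF1 and the C/EBP family.

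The promoters of 8 genes with a region at the top of every list are printed below as picked examples, and that of Alb is printed last as a contrast. Each is the 250 bases before the start on the gene's own strand, from RefSeq promoters of GRCm38.p6. Capitals mark every match, on either strand, to a CCAAT box, to the SP/KLF letters GGGGCGG, to the ETS letters CCGGAAG, to the E-box letters CACGTGAC, to the HNF1 letters GTTAATNAT or to the C/EBP letters TTGCNNAA. A search for the letters of CRE, TATA and FOXA, spelled TGACGTCA, TATAAA and TGTTTAC, found none in these stretches. The promoters lie at chr8:57511593-57511842 (Hmgb2, + strand), chr7:68749239-68749488 (Arrdc4, - strand), chr13:5861239-5861488 (Klf6, + strand), chr6:47813513-47813762 (Pdia4, - strand), chr13:119690101-119690350 (Hmgcs1, + strand), chr5:28071162-28071411 (Insig1, + strand), chr14:18239107-18239356 (Nr1d2, - strand), chr1:52844788-52845037 (Hibch, + strand) and chr5:90460620-90460869 (Alb, + strand).
Hmgb2: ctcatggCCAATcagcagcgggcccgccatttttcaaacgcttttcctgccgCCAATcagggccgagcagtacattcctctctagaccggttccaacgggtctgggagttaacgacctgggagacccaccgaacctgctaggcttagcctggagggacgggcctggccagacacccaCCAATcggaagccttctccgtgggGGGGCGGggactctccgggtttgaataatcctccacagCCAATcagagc
Arrdc4: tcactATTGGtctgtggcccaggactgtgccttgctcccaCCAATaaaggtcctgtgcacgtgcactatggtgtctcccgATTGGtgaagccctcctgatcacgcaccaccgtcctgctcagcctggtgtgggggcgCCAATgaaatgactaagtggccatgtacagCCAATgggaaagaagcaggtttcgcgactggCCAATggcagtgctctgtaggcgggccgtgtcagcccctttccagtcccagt
Klf6: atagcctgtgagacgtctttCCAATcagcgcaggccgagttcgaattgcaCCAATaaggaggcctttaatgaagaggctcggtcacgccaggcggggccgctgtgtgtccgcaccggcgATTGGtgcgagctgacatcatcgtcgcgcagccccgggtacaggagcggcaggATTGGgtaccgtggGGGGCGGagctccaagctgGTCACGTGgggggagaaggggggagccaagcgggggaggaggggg
Pdia4: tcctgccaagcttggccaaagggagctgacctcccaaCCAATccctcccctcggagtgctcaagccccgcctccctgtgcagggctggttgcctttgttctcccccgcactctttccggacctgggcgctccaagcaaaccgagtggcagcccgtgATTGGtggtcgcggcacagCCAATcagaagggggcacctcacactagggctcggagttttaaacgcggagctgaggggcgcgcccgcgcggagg
Hmgcs1: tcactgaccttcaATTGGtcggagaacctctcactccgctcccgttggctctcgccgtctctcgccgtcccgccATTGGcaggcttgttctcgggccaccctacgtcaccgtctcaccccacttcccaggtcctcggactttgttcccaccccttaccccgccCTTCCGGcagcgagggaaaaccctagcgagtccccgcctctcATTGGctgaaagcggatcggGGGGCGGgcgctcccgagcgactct
Insig1: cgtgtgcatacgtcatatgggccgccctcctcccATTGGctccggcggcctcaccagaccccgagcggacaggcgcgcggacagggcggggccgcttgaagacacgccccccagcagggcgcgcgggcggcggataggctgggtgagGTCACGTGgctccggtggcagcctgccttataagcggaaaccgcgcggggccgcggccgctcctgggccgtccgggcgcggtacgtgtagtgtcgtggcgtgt
Nr1d2: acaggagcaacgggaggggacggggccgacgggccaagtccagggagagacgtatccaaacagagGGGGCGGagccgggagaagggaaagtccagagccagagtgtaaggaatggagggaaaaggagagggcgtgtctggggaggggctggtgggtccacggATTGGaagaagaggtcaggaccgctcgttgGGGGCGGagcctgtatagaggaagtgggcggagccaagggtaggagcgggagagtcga
Hibch: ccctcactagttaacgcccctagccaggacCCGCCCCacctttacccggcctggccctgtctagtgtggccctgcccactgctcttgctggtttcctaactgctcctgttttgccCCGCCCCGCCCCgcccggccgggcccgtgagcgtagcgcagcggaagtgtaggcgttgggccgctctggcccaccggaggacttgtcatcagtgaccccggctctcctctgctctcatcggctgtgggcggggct
Alb: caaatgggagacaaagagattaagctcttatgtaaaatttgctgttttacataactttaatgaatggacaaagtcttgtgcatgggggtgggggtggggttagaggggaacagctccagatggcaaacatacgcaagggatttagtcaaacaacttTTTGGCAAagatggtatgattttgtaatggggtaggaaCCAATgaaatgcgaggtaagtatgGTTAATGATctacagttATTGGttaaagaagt

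Several of these sequences hold repeated CCAAT boxes. Arrdc4 holds 6 in the printed stretch, Hmgb2 and Klf6 hold 4 each, and Pdia4 and Hmgcs1 hold 3 each. Hibch has no CCAAT and 3 GGGGCGG matches, of which a pair overlaps. Alb holds 2 CCAAT, 1 HNF1 match and 1 C/EBP match, with 39.2% G and C and 2 CpG, against 58% G and C and 9 CpG in Arrdc4, the lowest of the other 8, and 72.8% and 34 in Insig1, the highest. The start of Alb lay in a region called in fewer than 4 libraries. These promoters were picked after their values and letters were seen. A match is a description of letters and not of a bound factor.

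Lines are given from here on in the order WT 1, WT 2, PA 1, PA 2. The first places were not at promoters. The 6 regions that lay within the first 10 lines of every list were all over 1 kb from the ends of protein-coding genes. They were chr5:146260939-146261340 inside Cdk8 (lines 4, 2, 1 and 2), chr16:57391326-57391730 inside Cmss1 and Filip1l (lines 5, 4, 3 and 4), and chr11:109011731-109012138 in the lncRNA gene Gm36876 (lines 6, 3, 2 and 1). The others were chr3:5860471-5860870, which overlapped no annotated gene (lines 8, 5, 4 and 5), chr16:11143915-11144314 inside Zc3h7a (lines 9, 7, 5 and 6), and chr6:103649019-103649418 inside Chl1 (lines 2, 6, 10 and 7). All were close to the 400 bp length of a single peak, so the 4 libraries placed the same window there. Exons and introns are not told apart by the gene table used. No list of regions to exclude was applied here, and no source used here says whether the authors applied one.

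The next places went mostly to promoters and gene ends. The region at Hjurp, the chaperone of the centromeric histone CENP-A, stood on lines 12, 8, 13 and 9, and that at Rap2a, a small GTPase, on lines 13, 14, 18 and 11. Hmgb2, a chromatin protein that bends DNA, stood on lines 10, 18, 26 and 12. Arrdc4, an arrestin-domain gene that responds to glucose, stood on lines 11, 30, 17 and 13. In each of these 4 regions the lines of the genotypes overlapped. Transcription regulators among the first 25 regions by worst line included Zbtb18, a repressor (17, 22, 25 and 19), and Sp4, of the SP family (19, 24, 21 and 29). They also included Klf6 (16, 12, 40 and 21) and Klf10 (18, 10, 47 and 18), both KLF factors induced early by growth signals. Tle1, a Groucho corepressor, stood on lines 36, 11, 42 and 14. Signalling genes were Ripk2, the kinase below NOD receptors (29, 20, 28 and 16), Ifngr1, a chain of the interferon-gamma receptor (27, 33, 16 and 23), and Otud1, a deubiquitinase (14, 16, 30 and 17). Acadm, the medium-chain acyl-CoA dehydrogenase of fatty acid oxidation, was also among these 25, on lines 25, 28, 46 and 26. The remaining regions among the first 25 stood on lines from 10 to 46. They were at Pcmtd1 (1604 bp inside its end), Slc39a10, a zinc transporter, Ankrd50, Zfp654 with Cggbp1, Cdca2 with Kctd9, and Chchd7 with Plag1.

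**Figure D1:**
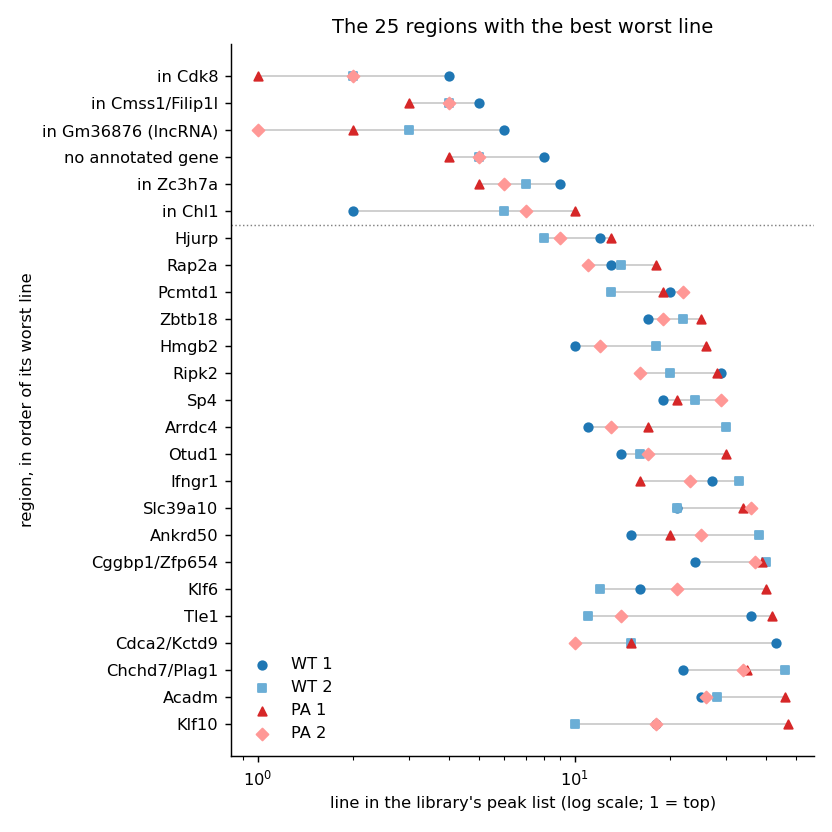
Line in each library's peak list (horizontal, log scale, 1 at the top) for the 25 regions with the best worst line, 1 region a row, with 1 point per library and a grey bar over their range. The 6 regions above the dotted line stand within lines 1 to 10 of every list and lie away from gene ends. The points of WT and PA libraries overlap or tie in most rows. They are apart in others, such as Zc3h7a and Ifngr1 with PA first and Chl1 and Slc39a10 with WT first.

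Place agreed closely between libraries for most of the 676 regions. The worst line was a median 2.00 times the best line (quartiles 1.62 and 2.57), and the median lines were 363.5, 348.5, 356.5 and 350.5. Each region held exactly 1 peak per library, so it used 676 of the 1000 top lines of each list. Of the other top lines, 305, 306, 313 and 307 lay in regions called in all 4 libraries that fell past line 1000 in another list, and 19, 18, 11 and 17 in regions called in fewer libraries. The 1000-line limit has no natural gap. Just inside it by worst line stood Hnrnpa3 (993), Strn3 with Ap4s1 (995), Hdac2 (995), Ep400 (997) and Asf1a (1000). Just outside stood Uvrag (1002), Atg5 (1004), Sptlc2 (1005), 4933407O12Rik with Hnrnpll (1006) and a region assigned to Itpkb (1007). These values are those of the choice itself and carry no test.

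A group of peaks at the very top of the lists was not among the 676. Between positions 98662479 and 98667382 of chromosome 2, over 1 Mb from any protein-coding gene end, the libraries placed peaks at lines 1 and 3 (WT 1), 1 (WT 2), 8 and 6 (PA 1) and 3 (PA 2). These formed 3 separate merged regions, none called in all 4 libraries. With regions up to 5 kb apart joined, an alternative chosen after seeing the data, they count and the total is 680.

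Most of the 676 regions lay at gene ends. Of them 565 (83.6%, exact Clopper-Pearson 95% interval 80.57 to 86.29, for the counting of regions only) had a protein-coding gene end within 1 kb, against 42.7% of the 16905 other regions called in all 4 libraries. Inside genes lay 11.5% against 29.2%, and between genes 4.88% against 28.1%. Counted per library over single peaks, the share near a gene end was 80.55% ± 2.02 in lines 1 to 1000 and 32.07% ± 1.77 in later lines, a difference of 48.5 ± 2.01 percentage points (SD, n = 4 libraries). It was 45.7, 48.5, 49.6 and 50.2 points in the 4 libraries. In each library 676 of the 1000 top lines lie in the same regions by the rule of choice. That SD therefore does not measure the spread between regions. The limit of 1000 lines is not a step in this share. Among regions called in all 4 libraries it was 85.6% for worst lines 501 to 1000 and 82.4% for 1001 to 2000, and then fell through 71.3%, 54.9% and 35.1% to 19.9% for worst lines past 20000.

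A listed start of a protein-coding gene lay in 433 of the 676 regions (64.1%), against 34.1% of the other regions. A further 20 held only the start of an lncRNA gene, 166 lay within 1 kb of a protein-coding end or start, and 57 (8.43%) were farther away, against 51.3% of the other regions. Starts on both strands, as at a promoter shared by neighbouring genes, were found in 36 of the 433 (8.31%) and in 446 of 5760 other regions with a start (7.74%), shares that lie close together. The longest of the 676 were at Gsk3b, the kinase of glycogen and Wnt signalling (821 bp), Prdm10 (734 bp), Manea (723 bp), Larp7 with Zgrf1 (721 bp) and Mrps28 (710 bp). The median length was 433 bp, against 444 bp for the other regions, and the outermost peak centres of a region were a median 33 bp apart against 44 bp.

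Peaks at the top of the lists sat farther before the start than other peaks. Over 500 starts in the 676 regions, the median distance from start to peak centre was -103.5, -102.5, -104.5 and -104.5 bp in the 4 libraries, where a negative value lies before the start. Over 6679 starts in other regions called in all 4 libraries it was -49.5, -46.5, -48.5 and -49.5 bp. The shift of the median was -55.25 ± 0.957 bp (SD, n = 4 libraries), and it was seen in every library. That SD is over libraries read at the same starts and does not measure the spread between starts. Single starts of both sets overlapped widely. By mean peak centre, 22.4% of starts in the 676 regions and 27.7% of the others lay between -100 and -50 bp. The peak centre lay before the start for 88.2% ± 0.806 of the starts, against 76.9% ± 1.01. A region enters with all 4 of its peaks, and both sets have a call in all 4 libraries.

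**Figure D2:**
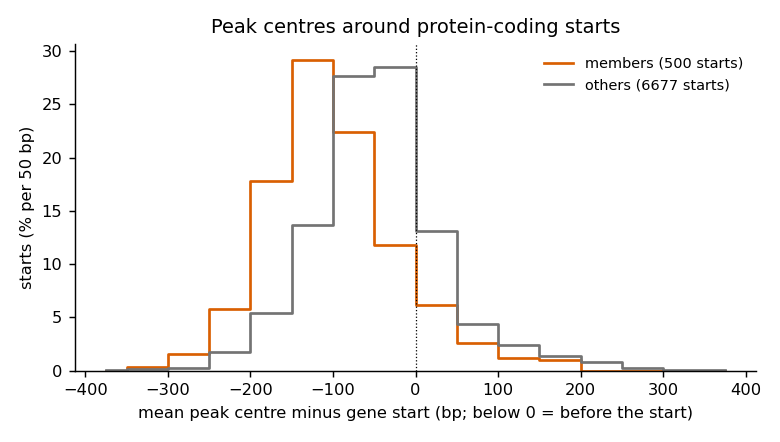
Distance from protein-coding start to the mean peak centre of the 4 libraries (horizontal, bp, below 0 before the start) against the share of starts in each 50 bp (vertical, %), for starts in the 676 regions (members) and in other regions called in all 4 libraries (others). The members peak between -150 and -100 bp and the others between -50 and 0 bp. The axis leaves out 2 of the 6679 other starts.

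The promoters in these regions were rich in G, C and CpG. In the 300 bases from 250 before to 50 after the start, the median G and C content was 67.3% in the 676 regions, 62.3% in other regions called in all 4 libraries, 59.0% in regions of 1 to 3 libraries and 51.7% at starts in no region. The median number of CpG was 28, 23, 17 and 5 in the same order. Base composition and place in the lists thus moved together, and the letters of any GC-rich motif follow in part from the composition, so shares are also given for starts with 60 to 75% G and C.

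CCAAT boxes were more common in these promoters than in others, also at like G and C content. At least 1 CCAAT, on either strand, stood in 57.0% of promoters, against 42.8% of those in the other regions and 38.5% of all promoters. At least 2 stood in 176 of 500 promoters (35.2%), against 18.2% of 6679 promoters in the other regions and 12.9% of all promoters. At least 3 stood in 17.8%, against 6.81% and 3.92%. Within 60 to 75% G and C the shares were 34.1% against 16.6% for at least 2, and 15.0% against 5.14% for at least 3. The longer NF-Y letters AGCCAAT, which contain CCAAT, were in 24.2% against 13.4% (9.36% of all promoters), and within the same G and C range in 24.8% against 12.4%. The counts of CCAAT were made after the promoters had been read, and no test was run, since promoters are not replicates of a condition.

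Of the other motifs, GGGGCGG and an E-box were also more common and ETS letters less common. GGGGCGG was in 67.2% of promoters against 48.6% (31.2% of all), and within 60 to 75% G and C in 71.8% against 60.1%. The E-box CACGTGAC was in 7.80% against 4.79% (2.86% of all). CCGGAAG was less common, with 17.2% against 22.7% (11.7% of all), also within the G and C range, where it was 19.4% against 24.7%. TATAAA was in 3.20% against 5.52%, while 12.7% of all promoters hold it, but within the G and C range it was 3.36% against 3.07%. Within that range the DR1 letters AGGTCANAG were in 0.258% (1 promoter) against 1.05%. The STAT letters TTCNNNGAA were in 3.10% against 4.90%, and the NRF1 letters GCGCATGCG in 3.10% against 5.06%. The CRE, YY1, ZNF143 and D-box letters were lower there as well. The CTCF and AP-1 letters went the other way, with 18.3% against 16.9% and 4.13% against 2.94%. Of the letters of liver factors, the C/EBP letters were in 5% against 7.70% and, within the G and C range, in 5.17% against 5.22%. The FOXA letters were in 2.20% against 2.34%, and within that range in 2.07% against 1.75%. The HNF4A letters CAAAGTCCA and the HNF1 letters GTTAATNAT were in 0 of 500 promoters, against 0.404% of other promoters each. They were in 0.456% and 0.727% of all promoters. Within the G and C range both were in 0 of 387, against 0.323% and 0.108%. At shares this low only a few matches would be found in 500 promoters, so 0 lies near the share in the other regions.

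**Figure D3:**
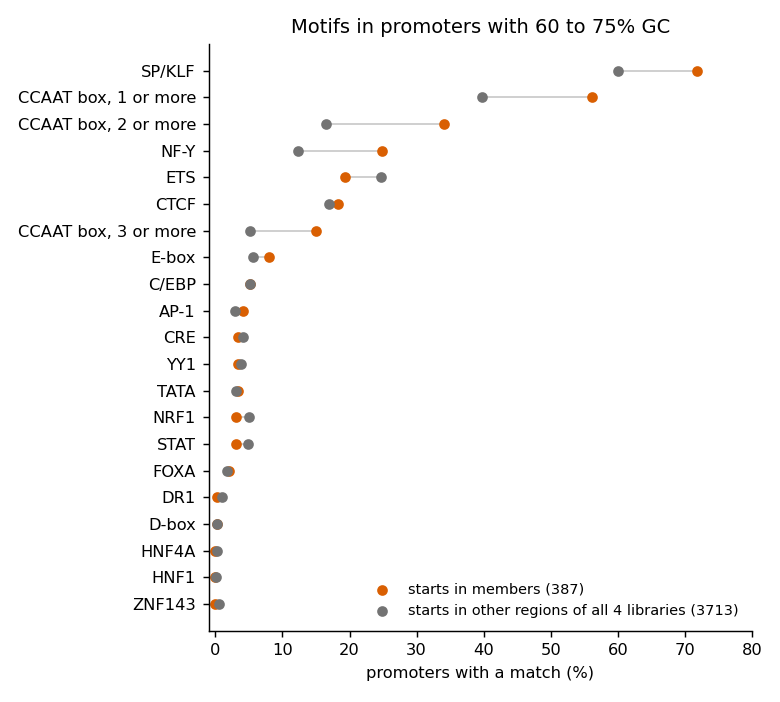
Share of promoters that hold each motif on either strand (horizontal, %) among starts with 60 to 75% G and C, 387 in the 676 regions (orange) and 3713 in other regions called in all 4 libraries (grey), with motifs in the order of the orange points. CCAAT boxes, counted as at least 1, 2 or 3 per promoter, the NF-Y letters and SP/KLF lie to the right in the 676 regions, and ETS lies to the left.

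The share with CCAAT boxes followed the place in the lists. With worst lines of 1 to 100, 15 of 31 promoters held at least 2 CCAAT (48.4%). The share was 39.6% for lines 101 to 500 and 30.7% for lines 501 to 1000. Past the limit it was 27.2% for lines 1001 to 2000, 27.1% for 2001 to 5000, 18.96% for 5001 to 10000 and 11.7% beyond. CCGGAAG ran from 12.9% in the first of these ranges to 24.2% in the last. GGGGCGG was highest, at 74.5%, for lines 101 to 500 and lowest, at 41.4%, in the last range.

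**Figure D4:**
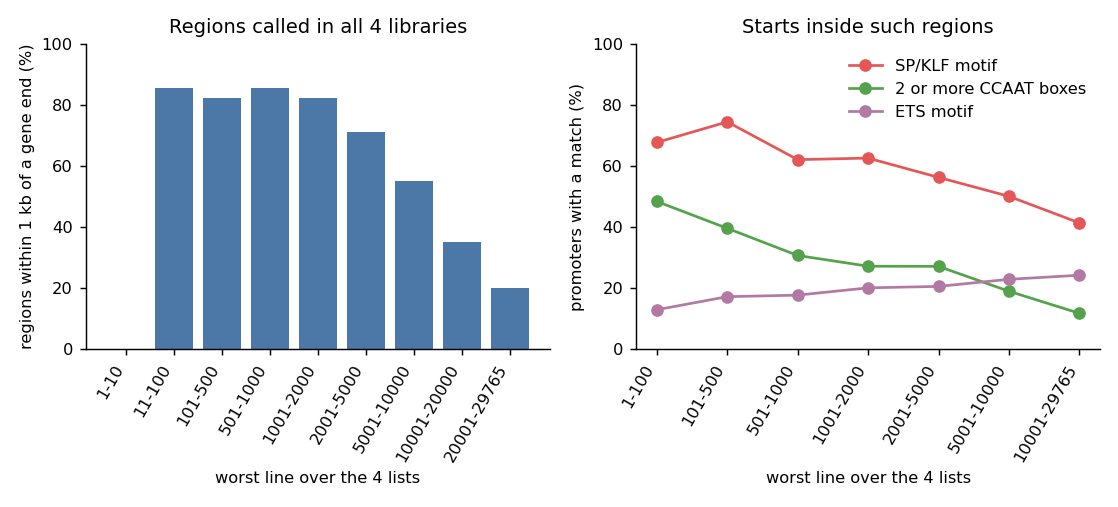
Left, share of regions called in all 4 libraries that lie within 1 kb of a protein-coding gene end (bars, %) by worst line over the 4 lists. Right, share of promoters in such regions with an SP/KLF match, at least 2 CCAAT boxes or an ETS match (points, %), where CCAAT falls from 48.4% to 11.7% and ETS rises from 12.9% to 24.2%.

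By gene, 710 of 21631 protein-coding genes (3.28%) had 1 of the 676 regions within 1 kb of an end or start, and 43.8% had a region called in all 4 libraries. Gene lists are read against these shares. The list of the unfolded protein and integrated stress responses had the highest share, 8 of 24 genes (33.3%), while 22 of the 24 had a region in all 4 libraries. The chaperone and quality control genes of the endoplasmic reticulum were Pdia4, a disulfide isomerase (lines 74, 32, 88 and 68), Dnajb9, a co-chaperone of BiP (73, 145, 149 and 78), Edem1, which sends misfolded glycoproteins to degradation (84, 104, 229 and 80), and Hsp90b1, the chaperone GRP94 (286, 100, 160 and 208). Hspa5, which encodes BiP itself, stood lower (918, 401, 866 and 483). Eif2ak3, the stress sensor PERK, stood on lines 207, 238, 272 and 242, and its targets Ddit4 and Ddit3 on lines 278 to 683. All 8 promoters held CCAAT, as did those of 8 of the 14 other list genes in the promoter table. The full ER stress element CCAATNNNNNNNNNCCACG was in those of Hsp90b1 and Hspa5, in those of Calr and Creld2 among the 14 other genes, and in 0.143% of all promoters.

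Cholesterol genes were next, with 6 of 24 (25%). Among them were the regulators of sterol sensing Insig1 (70, 17, 55 and 31) and Insig2 (627, 398, 492 and 498), which hold the SREBP precursor in the endoplasmic reticulum when sterols are plentiful. Others were the synthesis enzymes Hmgcs1 (26, 41, 84 and 32) and Msmo1 (147, 95, 263 and 77) and the sterol carrier Stard4 (189, 190, 250 and 200). Insig1 and Hmgcs1 stood nearer the top than the others named here in every library. CCAAT was in the promoters of 3 of the 4 of these genes with a listed start in such a region, and in those of 10 of the 11 other list genes in the promoter table. The sterol element TCACNCCAC was found in the promoter of Hmgcs1 alone among those 4 genes, in 0 of the 11, and in 1.20% of all promoters. The list of fatty acid synthesis had 0 of 20 genes, while 17 of them had a region in all 4 libraries. In a list this short, 0 lies near the share of 3.28% over all protein-coding genes.

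Genes that respond early to signals numbered 10 of 41 (24.4%). Klf6 and Klf10 were followed by Trib1, a pseudokinase (156, 99, 179 and 63), Btg1 (153, 68, 268 and 123), the AP-1 subunit Jun (317, 139, 291 and 132), Id2 (328, 86, 222 and 179), Rhob, Gadd45a, Jund and Atf3. Of the circadian clock list 4 of 22 genes were members (18.2%). Nr1d2, the repressor REV-ERB beta, stood on lines 55, 39, 65 and 90, and Arntl, the clock activator BMAL1, which REV-ERB represses, on lines 276, 297, 153 and 92. Bhlhe40, a further clock repressor, stood on lines 161, 92, 354 and 89.

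In the pathway that the mutated enzyme belongs to, 4 of 30 genes of propionate and branched-chain amino acid breakdown were members (13.3%), and 26 had a region in all 4 libraries. Hibch, which acts in valine breakdown, stood on lines 76, 160, 76 and 107. Mmut, methylmalonyl-CoA mutase, stood on lines 110, 219, 419 and 295, in a region that also overlaps Cenpq and its start. Mmaa, which serves the cobalamin cofactor of that mutase, stood on lines 434, 213, 412 and 461, and Aldh6a1, the methylmalonate semialdehyde dehydrogenase, on lines 584, 891, 568 and 812. Fatty acid oxidation had 4 of 29, namely Acadm, Acaa2 (158, 91, 127 and 88), Acsl1 (232, 167, 372 and 175) and the nuclear receptor gene Ppara (480, 354, 922 and 205). The tricarboxylic acid and pyruvate dehydrogenase list had 4 of 26: Fh1, Pdk4 (108, 571, 227 and 559), Pdhb and Pdhx. Among genes of histone acylation 3 of 33 were members, the acetyltransferase gene Kat6b and the deacetylase genes Hdac4 and Hdac2.

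Lists of large complexes stayed near the background. Cytosolic ribosomal proteins had 2 of 87 genes (2.30%), the proteasome 1 of 51 (1.96%), the respiratory chain 3 of 96 (3.12%) and mitochondrial ribosomal proteins 4 of 78 (5.13%). Yet from 76.5% to 80.5% of the genes of these lists had a region in all 4 libraries. Translation factors had 5 of 34 (14.7%), with Tpt1 and Eef1a1 first, and heat shock proteins 4 of 27 (14.8%), with Hspa8, the constitutive cytosolic HSP70, on lines 105, 60, 75 and 49. Some of these genes share a region and are counted by gene: Hspd1 with Hspe1 among the heat shock proteins, Psma2 with Mrpl32, and Ndufb5 with Mrpl47. Chromatin remodelling (33 genes) and NF-kB genes (17) had 0 members, with 23 and 12 genes called in all 4 libraries. In lists this short, 0 also lies near the share over all protein-coding genes.

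Among genes that mark hepatocytes, secreted products and transcription factors both gave few members. The share over all protein-coding genes was 3.28%, so in lists this short 0 to 2 members lie near it. Of 36 secreted protein and other hepatocyte product genes 0 were members and 14 had a region in all 4 libraries, of which the nearest to the top was that of Igfbp1 (lines 1617, 2852, 2881 and 2165). The median worst line of those 14 was 8222, against 7519 for all protein-coding genes with such a region. Of 24 hepatocyte transcription factor genes 2 were members (8.33%), Cebpa, a C/EBP gene (505, 282, 461 and 439), and Ppara. The 13 of these genes with a region in all 4 libraries had a median worst line of 5357. Of these factor genes, the nearest past the limit were Nr0b2, a bile acid responsive corepressor (1218, 1504, 1465 and 1056), Klf15 (1823, 1597, 2144 and 1455) and Xbp1 (2803, 1416, 2821 and 2220). Hnf4a, a master regulator of hepatocytes, stood on lines 6244, 6276, 9344 and 5673. Markers of other liver cells had 0 members as well, among 15 endothelial, 15 Kupffer, 14 stellate, 11 bile duct, 14 lymphocyte and 15 neutrophil and erythroid genes, and 4, 0, 1, 1, 1 and 0 of them had a region in all 4 libraries.

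Between genotypes, the 676 regions gave counts near the background. Both PA lines came before both WT lines in 111 regions (16.4%), against 15.0% of all regions called in all 4 libraries. Both WT lines came first in 103 regions (15.2%), against 13.3%. The median of log2 WT line minus log2 PA line, each averaged over 2 libraries, was -0.018 over the 676 regions. The lines are what chose the regions, so these values are a description. Since lists differ in length, places were also expressed as a percentage of the list, and PA then came first in 141 regions (20.9%, against 24.3% of all regions called in all 4 libraries) and WT in 69 (10.2%, against 8.25%). The share of PA among those calls moved from 51.9% to 67.1%, and over all regions called in all 4 libraries it moved from 53.0% to 74.6%. PA 2 has the longest list, with 29765 lines against 25683 to 26280, so the balance between the genotypes depends on this scaling.

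Of the 72 regions at list genes, 6 had both PA lines first (8.33%) and 11 both WT lines (15.3%), beside 15.0% and 13.3% of all regions called in all 4 libraries. Besides Arntl and Kat6b, PA came first at Mrps28, Mrpl47 with Ndufb5, Eif5a and Ddit4 (418, 538, 339 and 278). Besides Nr1d2 and Mmut with Cenpq, WT came first at Ccnl1, Txn1, Ndufaf4, Sf1, Gtf2a1, Cul3, Klf6, Stard4 and Eif2ak3. As percentages of the lists, the genotypes overlapped at Stard4, Ndufaf4, Eif2ak3 and Gtf2a1, and the others of these kept their direction. Ube2d3 (216, 183, 135 and 184) then had both PA lines first, so the counts became 7 and 7 of the 72 regions. On that scale the shares over all regions called in all 4 libraries were 24.3% with PA first and 8.25% with WT first. Among regions at promoters and gene ends, by the ratio of the nearest lines, the widest with PA first were at Kat6b (654, 607, 142 and 246), Inpp5a, an inositol phosphatase (252, 225, 102 and 100), and Trim45 (574, 590, 119 and 288). With WT first they were at Megf9 (51, 51, 162 and 151), Ilk with Rrp8 (472, 440, 978 and 953), Atxn7l3b (303, 359, 702 and 775), Ccnyl1 (149, 117, 507 and 289), Zyx, a focal adhesion protein (97, 136, 255 and 253), and Kctd12 (353, 447, 806 and 836). A region 10304 bp from Klrb1b also had both WT lines first (228, 154, 886 and 452). The genotypes do not overlap in these regions because they were picked so, and their directions were the same as percentages of the lists.

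Some regions stood at very different places in the 4 lists. The worst line was at least 10 times the best in 10 of the 676 regions, a limit chosen after seeing the values. Since all lines are at most 1000, only regions with a best line of 100 or less can reach it. None of these was among the 433 over a protein-coding start, and 8 were among the 57 farther than 1 kb from protein-coding ends and starts. The median ratio of worst to best line was 2.00 over protein-coding starts and 2.25 in those 57. The widest was chr13:44869425-44869830 inside Jarid2, on lines 906, 178, 11 and 75. It was followed by chr18:68691933-68692333 in the lncRNA gene Gm30821 (618, 222, 12 and 44), chr16:35981542-35981941 over the lncRNA gene Gm15564 (835, 470, 23 and 196) and chr2:5379122-5379528 inside Camk1d (278, 29, 9 and 15). Then came chr9:110281109-110281513 over Mir6236 and Gm39429 (424, 144, 14 and 45), chrX:143482861-143483262 at 35104 bp from Pak3 (7, 23, 184 and 158) and chr17:36231361-36231762 at 23911 bp from Rpp21 (524, 587, 24 and 146). The last 3 were chr9:123461821-123462228 in Lars2 (98, 9, 7 and 8), chr15:75086585-75087008 at 21153 bp from Ly6c2 (664, 53, 562 and 283) and chr1:88288089-88288498 at 10445 bp from Hjurp (186, 311, 888 and 84). PA 1 stood nearest the top in 7 of the 10 and WT 1 farthest from it in 7. In several of them the libraries of 1 genotype also differed severalfold, as at Jarid2 with lines 906 and 178 in WT and 11 and 75 in PA. Genotype and single libraries cannot be told apart there, and what sets these places was not tested. Without the 57 regions PA came first in 98 and WT in 94, and no matching share over all regions is given beside these counts.

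**Figure D5:**
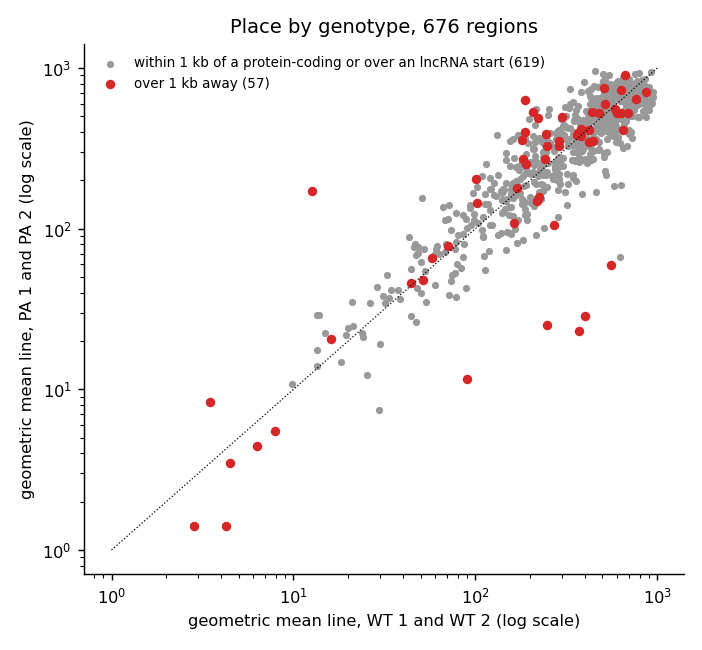
Geometric mean line of the WT libraries (horizontal, log scale) against that of the PA libraries (vertical, log scale) for the 676 regions, with the dotted line at equal places. Grey points are the 619 regions near protein-coding genes or over an lncRNA start. Most of them lie along the line, and a few, such as the region over Gm15564, lie off it. Red points are the 57 regions farther away, some of which lie far from the line on either side.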

How the data were processed

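ATAC-seq peak lists of 4 mouse liver libraries were used. The values deposited by the authors are positions (chromosome, start and end), with no score; 107655 peaks are 400 bp long and 14 are not. The authors used bedtools 2.31.0, Bowtie2 2.5.1, cutadapt 3.5, HOMER 4.10, R 4.1.2 and SAMtools 1.17 on GRCm38 (mm10), tools that the submitters' processing notes name without their roles. The peak caller, its threshold, read filters, the shift for the transposase, and the order of lines are stated in no source used here, and read depth is unknown. A list can be longer in a library with more reads or less background.

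Groups and replicate numbers came from sample titles. Peaks were merged in Python 3.11.15 with pandas 2.3.3, NumPy 2.4.6 and SciPy 1.17.1, and the steps were tested on simulated peaks. Figures were drawn with matplotlib 3.10.9. Genes and promoters came from RefSeq tables of GRCm38.p6. Of 21631 protein-coding genes, 17274 (79.9%) had a start in the promoter table used, which held none for chromosome 18, so the 23 regions there were judged by gene ends alone. A region without a gene end within 1 kb was assigned to the nearest protein-coding gene within 50 kb. All 675 symbols of the 32 gene lists found a gene, 2 through older symbols. No genome was used, so peaks themselves have no sequence here.

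The members and gene lists were chosen with earlier results of these data known. Named regions are the 25 with the best worst line, up to 5 per list, 8 per genotype by the ratio of nearest lines, 5 on each side of the limit, the 5 longest and those over 50 kb from genes, of which only those that results turn on are named; further names were chosen after values were seen, and a few list genes are not reported here. Region and promoter shares have no test, since regions are not replicates. Alternatives were other line limits, merging, distances, scaling, pairing by number and leaving out each library.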

Additional observations from a re-analysis of the deposited data

How the results depend on the processing

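The number of regions at the top of every list scaled with the limit: 321 with 500 lines and 1368 with 2000. It was 665 with an equal share of each list, 664 with peaks merged only where they share 200 bp, and from 704 to 744 without each library. The share near a gene end was 79.6% within 500 bp and 87.7% within 2 kb, and from 81.3% to 84.1% under the other settings. For the replicate block, PA 1 was set against WT 1 and PA 2 against WT 2, and both the regions with PA first and those with WT first then numbered 175. The labels tie the numbers to no litter or batch, and deviations of same-numbered libraries correlated at -0.106 over regions called in all 4 libraries and at 0.126 over the 676. With crossed pairs the counts were 156 and 147. Without each library in turn, regions with PA first ranged from 203 to 259 and with WT first from 185 to 247. These counts rise by construction, since the condition loosens. For the paired, crossed and left-out settings no share over all regions called in all 4 libraries is given, so these counts cannot be read against a background. Shares of the NF-Y, SP/KLF and ETS letters over 1 start per region or over starts with 60 to 75% G and C kept their order against the other promoters. The planned change of motif window, from 300 to 200 bp at the centre of a peak, was not run, since no genome was used.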

Other observations

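Chromosomes differed in how many of their regions stood at the top of every list. Of the regions called in all 4 libraries on the X chromosome, 1.08% (5 regions) were among the 676, and on chromosome 19 it was 1.30% (6 regions), against 3.85% over all chromosomes and 5.16% on chromosome 7, the highest. The X-linked regions were at Kdm6a, a histone demethylase gene known to escape X inactivation (lines 202, 80, 136 and 192 in WT 1, WT 2, PA 1 and PA 2), Ap1s2, Gk, which encodes glycerol kinase, Morf4l2, and the region away from genes near Pak3. On chromosome 19 they were at Tle4, a Groucho corepressor (92, 66, 31 and 46), Add3, Zfand5, Osbp, Sf1 and Mms19.

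Regions near a gene end that stood at the top of every list lay in gene-poorer surroundings than other such regions. They had a median of 9 gene starts within 500 kb (quartiles 6 and 15), against 14 for other regions called in all 4 libraries (quartiles 8 and 24), and the medians were the same without chromosomes 11, 19 and X. Some neighbours were both at the top: 986 bp separated a pair at Klf10 (lines 64, 31, 61 and 35, and 18, 10, 47 and 18), and 1894 bp a pair at Ing1 (856, 525, 613 and 540, and 177, 140, 202 and 155), both over listed starts of Ing1. Of the 676 regions, 4 overlapped a tRNA gene and 4 a miRNA gene (0.592% each), against 0.314% and 0.166% of the other regions called in all 4 libraries.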
